A study of Mus musculus with 8 samples.

Results

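Wnt ligands are secreted, lipid-modified glycoproteins with which neighboring cells instruct each other, and they are among the main local signals of bone. The 10 ligand genes described here, Wnt2b, Wnt4, Wnt5a, Wnt5b, Wnt7b, Wnt9a, Wnt10a, Wnt10b, Wnt11 and Wnt16, were picked by name out of the 19 Wnt ligand genes of the mouse and the 47706 genes of the count table. Each name matched a single row. RNA was sequenced from primary calvarial osteoblasts, bone-forming cells released by collagenase from the skullcaps of newborn mice, in 4 samples treated with parathyroid hormone (PTH) and 4 treated with vehicle. The 2 groups shared 7 days of differentiation and differed in the 24 hours of treatment that followed. The hormone was the 1–34 fragment, which the study's methods give at a micromolar dose after a short serum starvation. The labels give neither genotype nor strain for either group and mark the names of all 8 samples with the prefix Con, which they do not spell out. The labels call the differentiation adipogenic, whereas the methods describe osteoblast medium. Nothing in the labels tells whether the samples of a group came from separate cultures or animals, so the p-values measure the spread between these samples, which may be technical.

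In the producing cell, the acyltransferase Porcn attaches a fatty acid to a conserved serine of the ligand, and the carrier Wls takes the acylated ligand to the cell surface. At the receiving cell the ligand binds a Frizzled receptor. With the co-receptors Lrp5 and Lrp6 it stabilizes β-catenin, which drives osteoblast differentiation, and with the co-receptors Ror1, Ror2 and others it acts on cell polarity and calcium independently of β-catenin. Wnt2b, Wnt7b, Wnt9a, Wnt10a and Wnt10b are best known for the first route and Wnt4, Wnt5a, Wnt5b and Wnt11 for the second, although most ligands can use both. Wnt16, a regulator of cortical bone, was kept apart because it is known for both.

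The stretch of coding sequence around the acylated serine is shown for each ligand because this serine is conserved among them. Each line gives 24 bases of the coding strand, 8 codons with the serine codon in capitals, from the GENCODE M21 transcripts of GRCm38.
Wnt2b, chr3:104951220-104951243, minus strand, exon 4 of 5: tgtcacggtgtgAGTggctcctgt
Wnt4, chr4:137296345-137296368, plus strand, exon 5 of 5: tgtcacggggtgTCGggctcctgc
Wnt5a, chr14:28522515-28522538, plus strand, exon 5 of 5: tgtcatggagtgTCTggctcctgt
Wnt5b, chr6:119433800-119433823, minus strand, exon 5 of 5: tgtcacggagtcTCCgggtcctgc
Wnt7b, chr15:85537812-85537835, minus strand, exon 4 of 4: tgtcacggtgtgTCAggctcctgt
Wnt9a, chr11:59330926-59330949, plus strand, exon 4 of 4: tgccatggtgtgTCTggctcctgc
Wnt10a, chr1:74803156-74803179, plus strand, exon 4 of 4: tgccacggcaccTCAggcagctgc
Wnt10b, chr15:98772878-98772901, minus strand, exon 4 of 4: tgccatggaacgTCAggcagctgc
Wnt11, chr7:98850260-98850283, plus strand, exon 4 of 5: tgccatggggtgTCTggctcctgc
Wnt16, chr6:22297800-22297823, plus strand, exon 4 of 4: tgccacggagttTCCggctcctgt

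The 10 sites had 10 different base sequences, with 11 of the 24 bases the same in all of them, but encoded only 2 different peptides. Wnt10a and Wnt10b shared one peptide and the other 8 ligands the other. Of all 45 pairs of members, Wnt5a and Wnt5b had the most similar coding sequences (78.2% identical bases). Wnt10a and Wnt10b had 71.2%, and the median pair had 63.4%. These paralog pairs are compared further on.

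Total counts ranged from 41618108 to 46757836 per vehicle-treated sample and from 33605610 to 56090654 per PTH-treated sample. Of the 47706 genes, 16736 had enough counts to be tested. Tnfsf11, which encodes the osteoclast factor RANKL and is a known target of PTH, served to check the labels and lay between 0.987 and 1.79 CPM (counts over normalized library size) with vehicle and between 115 and 157 CPM with PTH (adjusted p = 4.28e-11, log2 fold change 6.48). Median levels in the 8 samples were 210 to 384 CPM for osteoblast markers and 4.51 to 7.08 CPM for adipocyte markers.

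All 10 ligands had enough counts to be tested, and PTH increased 6 of them, decreased 2 and left 2 without a call. Wnt10a reached the count needed only through its PTH-treated samples, since vehicle replicates 1 and 4 had 4 counts each. With no filter on low counts Wnt10a was still called higher (edgeR, adjusted p = 0.0456). Wnt4, Wnt11, Wnt2b, Wnt10a, Wnt7b and Wnt5b were upregulated, Wnt5a and Wnt10b were downregulated, and Wnt9a and Wnt16 did not pass the test. The increases reached 66.6-fold for Wnt4, while both decreases were smaller than 1 on the log2 scale. The test was edgeR's quasi-likelihood F-test with Benjamini-Hochberg adjustment over all tested genes, at an adjusted p of 0.05. PTH changed 45.8% of all tested genes, with 23.3% upregulated and 22.5% downregulated, so a call on a gene was common in these data. Increases of at least 1 on the log2 scale were less common. They occurred in 7.36% of all tested genes and in 5 of the 10 ligands, and the median log2 fold change was 1.33 over the 10 ligands, 0.66 over all 12 Wnt ligands that could be tested and 0.00 over all tested genes. The PTH and vehicle samples did not overlap for 8 of the ligands, against 43.0% of all tested genes. Over all 12 Wnt ligands tested, 6 were upregulated, 2 were downregulated and 4 were not called. The 10 were picked with earlier results of these data known, so their counts beside the shares of all genes are a description. Of the 5 ligands best known for β-catenin signaling, 3 were upregulated, 1 was downregulated and 1 was not called. They include Wnt10a and Wnt10b, whose calls were lost when single samples were left out. Of the 4 best known for the β-catenin-independent route, 3 were upregulated and 1 was downregulated.

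**Figure D1:**
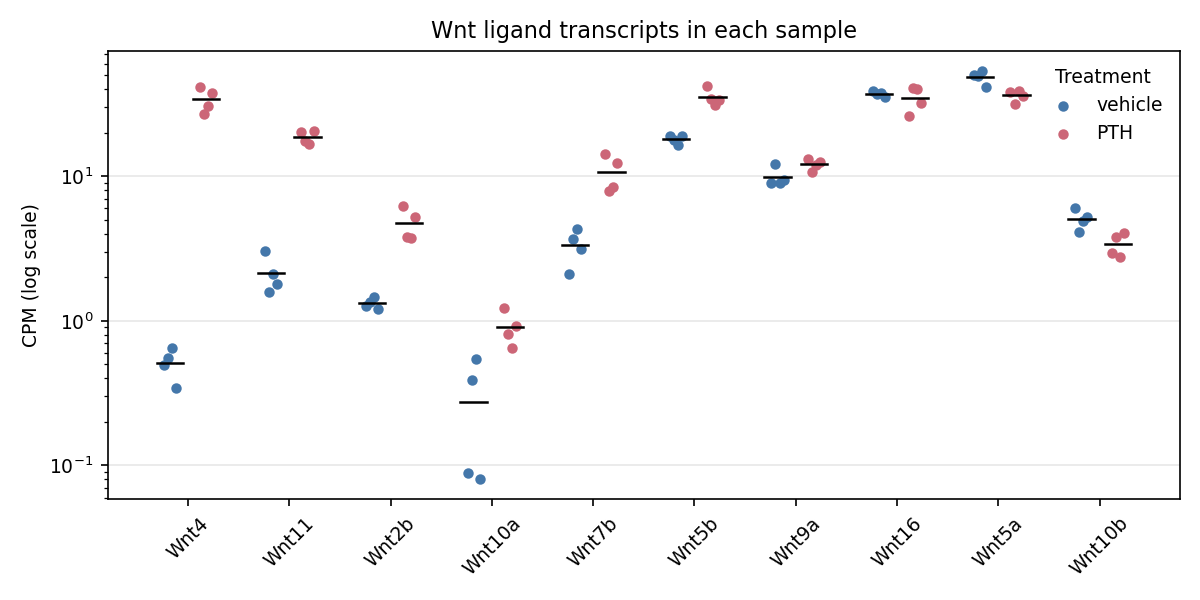
CPM of each of the 10 Wnt ligands (log axis) in the 4 vehicle-treated and the 4 PTH-treated samples; points are samples and bars are means. Wnt4 moved from 0.508 to 33.9 CPM and Wnt11 from 2.14 to 18.7 CPM, while the samples of Wnt9a and Wnt16 overlapped.

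Markers of other cell types were read beside the ligands, since in bulk samples fewer cells of a type and less RNA per cell cannot be told apart. Markers of macrophages summed to between 1080 and 1760 CPM with vehicle and between 1680 and 2150 CPM with PTH, and 2 of the 10 were upregulated. Chondrocyte markers summed to between 425 and 486 CPM with vehicle and between 497 and 627 CPM with PTH. Of the 6 that were tested, 2 were upregulated. For both lists none was downregulated, and their part in the ligand values was not tested. In the endothelial, epithelial and skeletal muscle lists at most 1 gene was called in each direction, and 3 of the 11 osteoblast markers were downregulated. Of all tested genes 23.3% were upregulated and 22.5% downregulated. These lists hold few genes, so their counts of calls cannot show whether a list differs from those shares. Endothelial markers summed to at most 7.65 CPM, epithelial markers to at most 2.28 CPM and skeletal muscle markers to at most 9.34 CPM in any sample. Emcn of the endothelial list and Krt14 of the epithelial list had at most 3 counts in every sample. Other markers were present, as 5 of 7 endothelial and 2 of 6 epithelial markers had enough counts to be tested.

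Wnt4, known for its part in forming kidney tubules and the female gonad, had the largest change of the family. Its levels were 0.491, 0.551, 0.647 and 0.343 CPM in the vehicle-treated samples and 41.2, 26.7, 30.4 and 37.3 CPM in the PTH-treated samples. Every PTH-treated sample was far above every vehicle-treated one, and replicates 1 and 4 were the highest of the PTH group. The log2 fold change of 6.06 ± 0.199 SE (adjusted p = 2.71e-10) placed Wnt4 35th among the 16736 tested genes, counted from the largest increase. The vehicle values rest on 17 to 31 counts per sample and the PTH values on 886 to 2110. The gene lies at chr4:137277489-137299726 on the plus strand. Its 4194-base transcript shares a stretch of at most 169 bases with transcripts of 27 other genes, all of it after the stop codon, and none of those genes is another Wnt.

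Wnt11, which guides cell movements in the gastrula and branching in the kidney, followed. Its levels were 3.06, 1.58, 2.09 and 1.81 CPM with vehicle and 20.2, 17.5, 16.8 and 20.5 CPM with PTH, with replicate 1 the highest of the vehicle group and no overlap between groups. The increase was 8.78-fold (log2 fold change 3.13 ± 0.18 SE, adjusted p = 4.29e-08). Wnt11 ranked 216th on the same count and lies at chr7:98835112-98855195 on the plus strand.

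Wnt5b, a regulator of cartilage growth, was the most abundant ligand to be upregulated, but by a smaller factor. It rose from 19.0, 17.7, 16.4 and 19.0 CPM with vehicle to 41.7, 33.9, 31.2 and 33.8 CPM with PTH. The samples within each group were close together, apart from a higher PTH replicate 1, and the groups were well separated. The fold change was 1.95 (log2 fold change 0.96 ± 0.0975 SE, adjusted p = 7.08e-06), and the gene lies at chr6:119432531-119544347 on the minus strand.

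Wnt5a, its paralog and the prototype of β-catenin-independent signaling, moved the other way. Vehicle-treated samples had 50.1, 49.1, 53.2 and 41.3 CPM and PTH-treated samples had 38.3, 31.6, 38.5 and 36.1 CPM. The lowest vehicle-treated sample, replicate 4, stood only slightly above the highest PTH-treated one. The decrease was 0.42 on the log2 scale (log2 fold change -0.42 ± 0.0914 SE, adjusted p = 0.0025). Wnt5a lies at chr14:28504750-28527448 on the plus strand.

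Among the ligands best known for β-catenin signaling, Wnt7b and Wnt2b showed the clearest increases. Wnt7b, which promotes bone formation and lung growth, had 2.12, 3.70, 4.30 and 3.16 CPM with vehicle and 14.2, 7.88, 8.48 and 12.4 CPM with PTH. PTH replicates 1 and 4 were again the highest, and the groups did not overlap (log2 fold change 1.70 ± 0.237 SE, adjusted p = 1.05e-04). Wnt2b, which acts with Wnt2 in specifying the lung, had 1.27, 1.35, 1.46 and 1.21 CPM with vehicle and 6.20, 3.79, 3.71 and 5.18 CPM with PTH. PTH replicates 1 and 4 were the highest here too, and the vehicle-treated samples were tightly grouped (log2 fold change 1.84 ± 0.213 SE, adjusted p = 2.29e-05). Wnt7b lies at chr15:85535437-85582473 and Wnt2b at chr3:104945272-104961921, both on the minus strand.

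Wnt10a, a ligand of tooth and hair development, had the lowest mean of the members in both groups. Its vehicle levels of 0.0892, 0.390, 0.542 and 0.0806 CPM rest on between 4 and 26 counts, and its PTH levels were 1.23, 0.812, 0.653 and 0.927 CPM. Vehicle replicates 1 and 4 were several times lower than replicates 2 and 3, so that the spread within the vehicle group was nearly as large as its mean (0.276 ± 0.229 CPM, SD, n = 4). The groups did not overlap (log2 fold change 1.71 ± 0.56 SE, adjusted p = 0.0251), but the call was lost when any of 4 samples was left out. Without PTH replicate 1 the log2 fold change was 1.52 (adjusted p = 0.059), and without PTH replicate 4 it was 1.70 (adjusted p = 0.0519). Without vehicle replicate 1 it was 1.42 (adjusted p = 0.0644), and without vehicle replicate 4 it was 1.40 (adjusted p = 0.0605). Wnt10a lies at chr1:74791516-74804179 on the plus strand, 6193 bases from Wnt6.

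Wnt10b, known to raise bone mass and to restrain adipocyte formation, was downregulated. Its levels were 5.98, 4.09, 4.88 and 5.26 CPM with vehicle and 2.95, 3.79, 2.74 and 4.04 CPM with PTH. Vehicle replicate 2 and PTH replicate 4 nearly met, but the groups did not overlap (log2 fold change -0.58 ± 0.18 SE, adjusted p = 0.0193). This call too was lost when single samples were left out, with an adjusted p of 0.0551 without PTH replicate 3 and 0.0586 without vehicle replicate 1. The log2 fold change was -0.50 in both cases, and Wnt5a was then the only ligand called lower. Wnt10b lies at chr15:98770712-98778150 on the minus strand, 11706 bases from Wnt1.

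Wnt9a, which takes part in joint formation, and Wnt16, which restrains osteoclast formation in cortical bone, did not pass the test. Wnt9a had 8.95, 12.1, 8.91 and 9.45 CPM with vehicle and 13.2, 10.7, 12 and 12.6 CPM with PTH. Vehicle replicate 2 stood apart from its group and among the PTH-treated samples (log2 fold change 0.30 ± 0.121 SE, adjusted p = 0.0631). An interval of 2 standard errors around this change ran from 0.06 to 0.54. Without vehicle replicate 2 the value was 0.40 with an adjusted p of 0.0158, and without PTH replicate 2 it was 0.36 with an adjusted p of 0.0317, so whether Wnt9a was called rests on those samples.

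Wnt16 had 38.5, 37.0, 37.8 and 35.0 CPM with vehicle and 26.2, 40.8, 40.0 and 32.0 CPM with PTH. PTH replicates 1 and 4 were below all vehicle-treated samples and replicates 2 and 3 above all of them, so that the coefficient of variation was 4.12% with vehicle and 20% with PTH. Its log2 fold change was -0.09 ± 0.122 SE (adjusted p = 0.559), with an interval of 2 standard errors from -0.34 to 0.15, and it was 0.02 without PTH replicate 1. Wnt9a lies at chr11:59306928-59333552 and Wnt16 at chr6:22288227-22298522, both on the plus strand.

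PTH replicates 1 and 4 were thus the lowest for Wnt16 and the highest for Wnt2b, Wnt4, Wnt7b, Wnt9a, Wnt10a and Wnt11. They were also the PTH-treated samples with the most counts (56090654 and 43965864, against 33605610 and 39559897), and their 10 most abundant genes took 15.8% and 14% of the counts, against 12.1% and 12.3%. The part of depth and of these abundant genes in the order within the group was not tested. In exact two-sided permutation tests on log2(CPM + 0.1), the 8 members without overlap had the smallest p that 4 against 4 samples allow (p = 0.0286), and Wnt9a and Wnt16 had p = 0.0857 and p = 0.543.

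**Figure D2:**
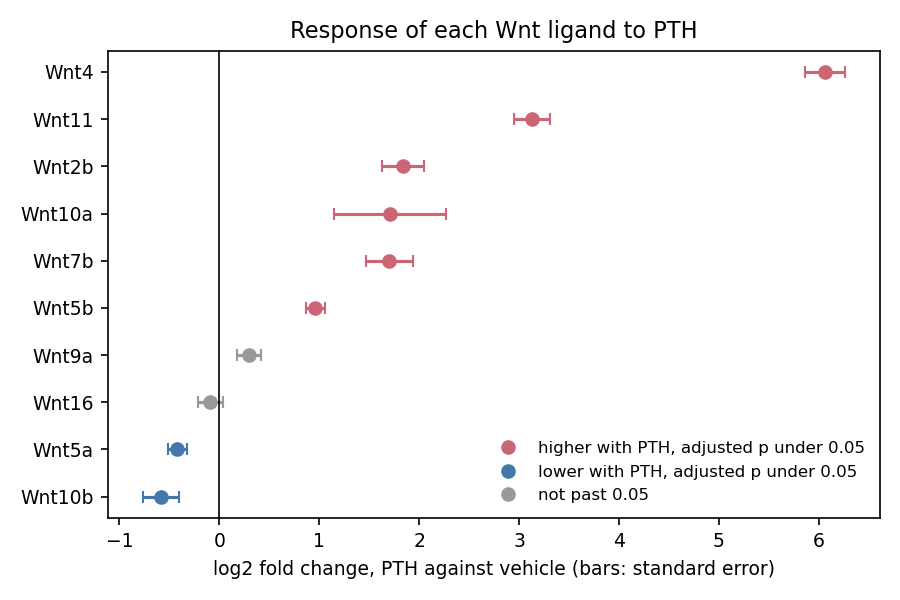
Log2 fold change of each Wnt ligand between PTH and vehicle from edgeR, with bars of 1 standard error and 4 samples a group. Wnt4 (6.06) and Wnt11 (3.13) lie far to the right, and only Wnt5a (-0.42) and Wnt10b (-0.58) were called lower.

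To compare levels between ligands, CPM were divided by the length of each gene's longest coding transcript in kilobases. With vehicle, Wnt16 was the most abundant ligand at 11.3 ± 0.465 CPM per kilobase (SD, n = 4). Wnt5b (7.61 ± 0.532) and Wnt5a (6.91 ± 0.719) followed with overlapping samples, and then Wnt9a (2.97), Wnt10b (1.87), Wnt7b (0.976), Wnt11 (0.619), Wnt2b (0.399), Wnt4 (0.121) and Wnt10a (0.112). Samples of the neighbors Wnt7b and Wnt11 overlapped in this order, as did those of Wnt4 and Wnt10a. With PTH, Wnt5b led at 14.8 ± 1.92 CPM per kilobase. Wnt16 (10.6 ± 2.12) and Wnt4 (8.08 ± 1.56) came next with overlapping samples, and were followed by Wnt11 (5.43) and Wnt5a (5.15), which also overlapped. Wnt9a (3.65) overlapped Wnt7b (3.16), Wnt2b (1.42) overlapped Wnt10b (1.25), and Wnt10a stayed last at 0.367. The order with PTH depended on the length used. With the summed length of all exons of a gene, a setting chosen after seeing the data, Wnt4 (8.08 CPM per kilobase) stood above Wnt16 (7.97) and Wnt5a (4.62) above Wnt11 (4.53), again with overlapping samples in both pairs, while the order with vehicle was the same.

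Summed over all 19 ligand genes, the level was 33.8 ± 0.926 CPM per kilobase with vehicle and 55.0 ± 3.29 with PTH, with every PTH-treated sample higher (52.3 to 59.2 against 32.4 to 34.5). The make-up of this sum changed as well. Wnt4 and Wnt11 together supplied 2.18 ± 0.523% of it with vehicle and 24.5 ± 2.37% with PTH. Wnt16 supplied 33.4 ± 0.548% with vehicle and 19.5 ± 4.93% with PTH, and Wnt5a 20.4 ± 1.69% and 9.38 ± 0.775%. The share of Wnt5b was 22.5 ± 1.91% with vehicle and 26.9 ± 2.10% with PTH. Such shares depend on each other, since a rise of one ligand lowers the share of the rest, and they were not tested.

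**Figure D3:**
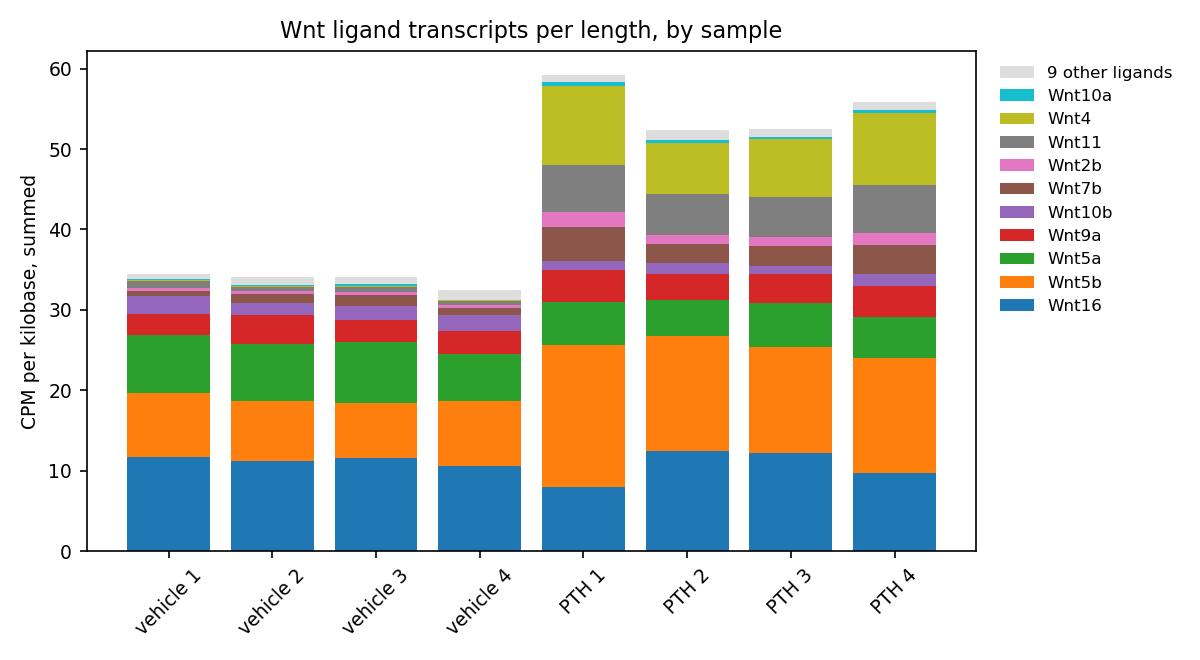
CPM per kilobase of longest coding transcript, stacked over the Wnt ligands, in each of the 8 samples. The stacks reach 32.4 to 34.5 with vehicle and 52.3 to 59.2 with PTH, and Wnt4 and Wnt11 together take 2.18% of the stack with vehicle and 24.5% with PTH.

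The other 9 ligands added little to the sum (2.76 ± 0.582% with vehicle and 1.95 ± 0.305% with PTH). Wnt6, known for kidney epithelium, and Wnt2, known for lung, had enough counts to be tested, and neither was called. Wnt6 had 37 to 63 counts with vehicle and 55 to 70 with PTH, and its CPM did not overlap (0.826 to 1.33 and 1.37 to 1.72), which gives the smallest exact two-sided permutation p of 0.0286. It did not pass the test across all genes (log2 fold change 0.36 ± 0.254 SE, adjusted p = 0.275). Wnt2 had 24 to 58 counts with vehicle and 21 to 27 with PTH (log2 fold change -0.44 ± 0.356 SE, adjusted p = 0.34). Wnt3, Wnt3a and Wnt8b had no count in any sample, Wnt8a had at most 2, Wnt7a at most 4 and Wnt1 at most 5, and Wnt9b had 0 to 6 with vehicle and 6 to 10 with PTH. A count of 0 allows for up to 3 counts, or between 0.0535 and 0.0893 CPM depending on the sample, which covers counting error only. Wnt10a and Wnt6, Wnt10b and Wnt1, and Wnt9a and Wnt3a are pairs of neighbors on their chromosomes. Wnt10b and Wnt9a had more counts than their neighbors in every sample. Wnt10a had fewer than Wnt6 in every sample, with 4 to 26 against 37 to 63 with vehicle and 25 to 63 against 55 to 70 with PTH.

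The paralog pairs were compared within each sample as the log2 ratio of CPM, which does not depend on the scaling of the samples apart from the added 0.1 CPM. Wnt5a exceeded Wnt5b by 1.39, 1.47, 1.69 and 1.11 on the log2 scale of CPM with vehicle, and the ratio was -0.12, -0.10, 0.30 and 0.10 with PTH. These CPM were not divided by length, and the longest coding transcript has 7010 bases for Wnt5a and 2371 for Wnt5b. Per kilobase Wnt5b had 7.61 and Wnt5a 6.91 CPM with vehicle, with overlapping samples, and 14.8 and 5.15 with PTH. The ratio is therefore read for its change between groups only. The difference between groups was -1.37, with no overlap. The log2 ratio of Wnt10a to Wnt10b was -5.01, -3.09, -2.96 and -4.89 with vehicle and -1.20, -2.09, -1.92 and -2.01 with PTH. That difference was 2.18, and 1.06 with 1 CPM added in place of 0.1, since Wnt10a was close to the added value. The genes of each pair had moved in opposite directions without overlap, so the separation of the ratios follows from the values of the single genes. The ratios are therefore a description, with no test.

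**Figure D4:**
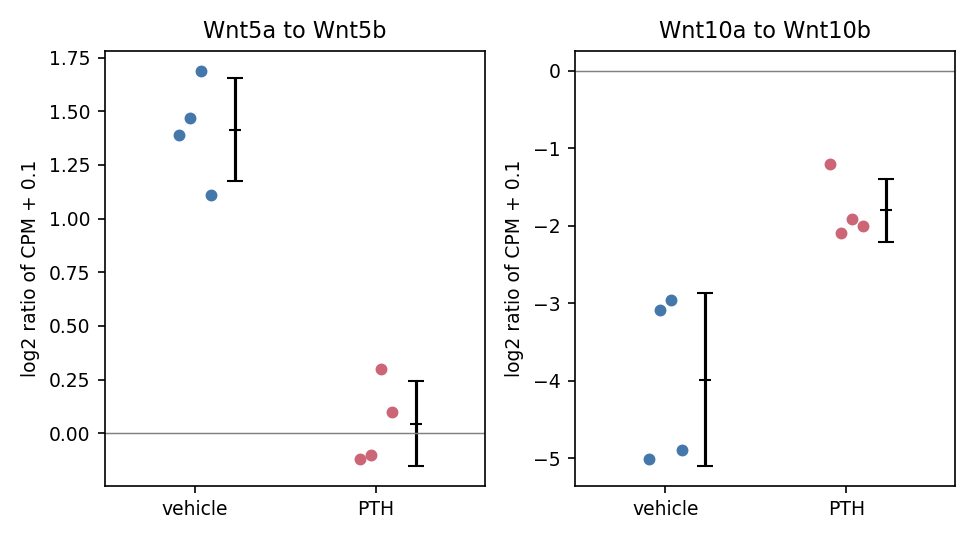
Log2 ratio of Wnt5a to Wnt5b (left) and of Wnt10a to Wnt10b (right), each from CPM + 0.1, in the 4 samples of each group, with mean and SD at the side. The first ratio averaged 1.42 with vehicle and 0.04 with PTH, and the second -3.99 and -1.80. CPM were not divided by transcript length, so the level of a ratio does not give the relative abundance of the 2 genes.

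The promoters of Wnt4 and Wnt11, the ligands with the largest increases, and of the downregulated Wnt10b are shown because PTH acts through cAMP, and the factor CREB binds the cAMP response element TGACGTCA or its shorter core TGACG. Capitals mark TGACG and the GC box GGGCGG, a site of Sp1, on either strand. Sequences are from RefSeq on GRCm38.p6, read in the direction of the gene. For Wnt4 the 104 bases end 146 bases before the RefSeq start, where an exon of the GENCODE transcript begins. For the others the 250 bases end at the start.
Wnt4, chr4:137277385-137277488, plus strand: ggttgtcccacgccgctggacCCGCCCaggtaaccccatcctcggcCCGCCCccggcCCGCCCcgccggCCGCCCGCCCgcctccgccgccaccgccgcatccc
Wnt11, chr7:98834862-98835111, plus strand: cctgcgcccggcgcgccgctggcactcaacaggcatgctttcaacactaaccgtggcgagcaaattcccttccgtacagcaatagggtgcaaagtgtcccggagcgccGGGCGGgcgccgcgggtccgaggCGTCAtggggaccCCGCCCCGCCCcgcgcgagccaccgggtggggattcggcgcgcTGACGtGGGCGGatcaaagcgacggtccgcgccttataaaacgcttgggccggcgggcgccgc
Wnt10b, chr15:98778151-98778400, minus strand: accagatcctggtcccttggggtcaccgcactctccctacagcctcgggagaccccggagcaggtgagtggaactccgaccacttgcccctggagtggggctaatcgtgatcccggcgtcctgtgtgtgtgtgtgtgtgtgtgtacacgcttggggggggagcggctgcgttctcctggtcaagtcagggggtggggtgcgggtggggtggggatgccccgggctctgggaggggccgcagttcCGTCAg

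These stretches held 5, 4 and 0 GC boxes and 0, 2 and 1 copies of TGACG, respectively, overlapping matches counted separately. RefSeq had 10 promoter windows of 250 bases for 7 of the members, 3 of them alternative starts of Wnt5b and 2 of Wnt11, and none was used for Wnt5a, Wnt7b and Wnt10a. The full element TGACGTCA was in none of the 10 windows and in 1.55% of all mouse promoters of that length. The core TGACG was in 3 windows (both of Wnt11 and that of Wnt10b) and in 17.8% of all promoters, so it was found in an upregulated as well as in a downregulated ligand. GC boxes were in 6 windows and in 32.7% of all promoters. A match of letters is a description of the window and does not show binding.

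The rest of the pathway did not move in one direction. Of 91 other Wnt pathway genes listed by role, 85 were tested, with a median log2 fold change of -0.06. Of these, 25 (29.4%) were upregulated and 28 (32.9%) downregulated, beside 23.3% and 22.5% of all tested genes. The lists for single roles hold few genes, so their counts are a description beside those shares. For the machinery that acylates, exports and removes ligands, 5 of 16 genes were upregulated and 2 downregulated. Porcn (17.4 ± 0.642 CPM with vehicle and 15.4 ± 1.19 with PTH) and Wls (419 ± 29.2 and 372 ± 38.3 CPM), through which the ligands pass, were not called, with an adjusted p of 0.102 and 0.126 by edgeR. Notum, the enzyme that removes the fatty acid from Wnts, was upregulated from 1.99 ± 0.746 to 4.94 ± 0.816 CPM (adjusted p = 0.00118, log2 fold change 1.31). Gpc4, a cell-surface proteoglycan that binds Wnts, had the largest decrease of this list (adjusted p = 0.0262, log2 fold change -0.29).

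Receptors changed in both directions, with 6 of 15 tested upregulated and 6 downregulated (23.3% and 22.5% of all tested genes). Fzd6, a Frizzled known for planar polarity, rose from 14.4 ± 1.74 to 56.5 ± 5.72 CPM (adjusted p = 1.93e-08, log2 fold change 1.97), and Fzd8 fell from 109 ± 8 to 21 ± 3.39 CPM (adjusted p = 7.91e-09, log2 fold change -2.36). Of the 8 tested genes of the R-spondin system, which sets how many Frizzled receptors stay at the surface, 5 were downregulated and 1, the receptor Lgr4, was upregulated (adjusted p = 1.95e-06, log2 fold change 1.13). The ligand Rspo3 decreased most, from 176 ± 9.92 to 80.2 ± 4.65 CPM (adjusted p = 6.23e-08, log2 fold change -1.13). Among secreted antagonists 2 of 9 were upregulated and 3 downregulated. Dkk1, which blocks Lrp5 and Lrp6, fell from 10.4 ± 4.57 to 0.214 ± 0.158 CPM (adjusted p = 1.97e-06, log2 fold change -5.57). Sfrp4, a decoy that binds Wnts, rose from 8.81 ± 1.30 to 31.9 ± 2.32 CPM (adjusted p = 5.59e-08, log2 fold change 1.85).

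**Figure D5:**
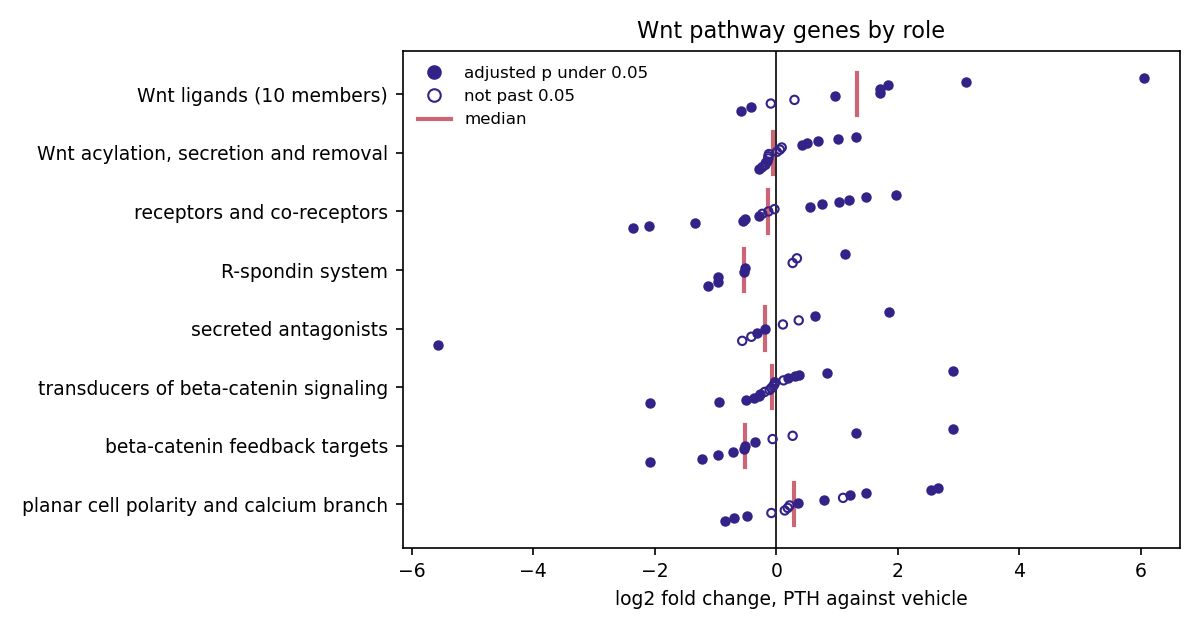
Log2 fold change, PTH against vehicle, of every tested gene of the 10 Wnt ligands and of 7 lists of pathway genes, with filled points for an adjusted p under 0.05 and a red line at each list's median. The median is 1.33 over the 10 ligands plotted (0.66 over all 12 Wnt ligands tested), and the medians of the other lists lie between -0.53 (R-spondin system) and 0.28 (planar cell polarity and calcium branch).

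Inside the cell, 5 of 18 transducers of β-catenin signaling were upregulated and 6 downregulated (23.3% and 22.5% of all tested genes). The β-catenin partner Lef1 had the largest increase, from 1.37 ± 0.193 to 10.3 ± 2.22 CPM (adjusted p = 1.15e-07, log2 fold change 2.91), and its relative Tcf7 decreased most, from 38.4 ± 11.4 to 9.09 ± 1.99 CPM (adjusted p = 6.41e-06, log2 fold change -2.07). Of 11 tested genes listed as targets and feedback genes of β-catenin, 2 were upregulated and 7 downregulated, with a median log2 fold change of -0.52. Lgr5, Rnf43 and Znrf3 also stand in the R-spondin list, Notum in the list of ligand removal, and Lef1 and Tcf7 among the transducers. The counts of these lists are therefore not independent. The genes with the largest changes there were again Lef1 and Tcf7. In the planar cell polarity and calcium branch, 6 of 14 were upregulated and 3 downregulated. Nfatc2, a calcium-dependent transcription factor, rose from 7.01 ± 0.674 to 44.5 ± 4.52 CPM (adjusted p = 9.34e-10, log2 fold change 2.67), and Invs, a ciliary protein, fell from 28.2 ± 0.930 to 15.8 ± 0.698 CPM (adjusted p = 1.50e-06, log2 fold change -0.84).

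Genes whose levels followed those of Wnt4 and of Wnt5b most closely were sought by Pearson correlation of log2 CPM over the 8 samples among the 14072 genes that averaged at least 1 CPM. All genes were measured in the same 8 samples, which fall into the treatment groups, so any gene with a large change correlates. The values are a description. The genes most like Wnt4 were Foxc2, Il1rl1, Fosl2, Nin and Myo1e, with r between 0.9988 and 0.999, and 333 genes had an r of at least 0.99. Foxc2, a forkhead factor, went from 10.4 to 97.7 CPM and Fosl2, a subunit of AP-1, from 125 to 1040 CPM. The genes most like Wnt5b were Btg1, Tagln2, Dph5, Sqstm1 and Nphp4, with r between 0.9917 and 0.9949, and 13 genes had an r of at least 0.99.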

How the data were processed

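The authors used HISAT2 to align paired reads of polyadenylated RNA to GRCm38 (mm10) and StringTie2 to assemble transcripts, and deposited whole-number counts per gene, which its companion script estimates from transcript coverage, without normalization. That script assumes reads of 75 bases unless told otherwise. The study's methods give longer reads, and counts made with 75 would all be too high by the same factor. Neither the value used nor the tool versions, annotation version and strand setting are given in the sources used here. Wnt5a, Wnt7b and Wnt11 overlap genes on the opposite strand that had at most 26, 3 and 0 counts in any sample. Groups and columns were taken from the sample names. No column was left unmatched.

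Genes passing filterByExpr (minimum count 10, minimum total 15) in edgeR 4.0.16 (R 4.3.3) were compared with TMM normalization, the two-sided quasi-likelihood F-test and Benjamini-Hochberg adjustment over 16736 genes, and called at 0.05, the study's threshold. The standard error is the log2 fold change divided by the square root of F. CPM used TMM library sizes. Single ligands were compared by exact permutation over 70 assignments of log2(CPM + 0.1), in SciPy 1.17.1. The same test had been planned for the paralog ratios and was dropped, since the single genes fixed its outcome. Lengths and positions came from GENCODE M21. Alignments of at least 150 bases at 95% identity were sought with blastn 2.17.0. Tables and plots were made in Python 3.11.15 (pandas 2.3.3, NumPy 2.4.6, matplotlib 3.10.9). The fits were also run on simulated counts in which far fewer genes changed than were called in these data. That run does not check the fits for changes this widespread.

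The members, gene lists and tests were chosen with earlier results of these data known. Named beside the members are the other ligands by their counts, the called gene with the largest increase and decrease of each pathway list, the 5 genes most correlated with the called ligand of largest change and with the called ligand of highest level per length, and Tnfsf11. Porcn and Wls were named as the route of the ligands after their values were seen. Alternatives were DESeq2 1.42.0 (the authors' tool), its size factors in edgeR, no filter, a replicate block, leaving out each sample, halved counts, counts summed by symbol, leaving out the 10 most abundant genes, a minimum log2 fold change of 1, an offset for transcript length and, for the ratios, another pseudocount and CPM by total count. The exon-union length for levels per kilobase was added after seeing the data. Replicates of a group differed by more than sampling noise, so none was counted as a duplicate.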

Additional observations from a re-analysis of the deposited data

Results flagged for a closer look

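The value of Wnt9a in vehicle replicate 2, 12.1 CPM, lay far from the other vehicle-treated samples (8.91 to 9.45 CPM) by Dixon's criterion. Vehicle-treated Wnt9a was the only one of the 20 ligand and treatment groups with such a value, and chance gives about 1 in 20.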

How the results depend on the processing

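The calls of Wnt2b, Wnt4, Wnt5a, Wnt5b, Wnt7b and Wnt11 held in all 16 alternative fits, DESeq2 included. The number of upregulated ligands was 6 in 7 of them, including the replicate block, 7 with the transcript length offset (which added Wnt9a, log2 fold change 0.38, adjusted p = 0.0207), and 5 to 7 when 1 sample was left out. The number of downregulated ligands was 2, or 1 to 2 when 1 sample was left out. A minimum log2 fold change of 1 left 5 upregulated and 0 downregulated ligands. Wnt16 changed its sign without PTH replicate 1 (log2 fold change 0.02, adjusted p = 0.888) and otherwise ranged from -0.18 to -0.01, without a call in any fit. The sample numbers did not pair the samples (correlations of deviations between -0.041 and 0.027), and with the replicate block 6 ligands were upregulated and 2 downregulated. The difference in the Wnt5a to Wnt5b log2 ratio ranged from -1.47 to -1.28 and that of Wnt10a to Wnt10b from 1.06 to 2.53, given as values with no test. With the exon-union length, the summed level of all ligands was 28.6 CPM per kilobase with vehicle and 47.8 with PTH, and the share of Wnt4 and Wnt11 together 2.23% and 26.3%. Depth limits Wnt10a, with as few as 4 counts in a sample, and the 7 ligands that were not tested. If counts were made with an unsuitable read length, all of them scale together, and halving them changed no ligand's call.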
